A study of Homo sapiens with 12 samples.

Results

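Long intergenic noncoding RNAs (lincRNAs) are transcripts of gene length that lie between protein-coding genes and have no recognised reading frame. Of the 7705 genes that the deposited count table labels lincRNA, 580 lay on a primary chromosome and averaged 1 CPM or more over the 12 libraries (CPM is the read count scaled to the library total), and these 580 of the table's 64253 genes are described here. The libraries came from JEKO-1, an established mantle cell lymphoma line, after 48 h in 1 of 4 conditions with 3 libraries each: KPT-330 together with choline salicylate (CS), CS alone, KPT-330 alone, or the solvent DMSO. KPT-330 (selinexor) blocks CRM1, also called XPO1, the carrier that takes many proteins and some RNAs out of the nucleus, and salicylates are anti-inflammatory drugs related to aspirin. All groups are the same unmodified line, and the dose given to these libraries is not stated in the sources used here. The study asked whether salicylates add to the antitumour activity of a CRM1 inhibitor. Whether replicate libraries come from independently treated cultures is not stated, so p-values reflect library-to-library spread that may be purely technical. Members were chosen by their mean CPM, so that level is a description and is not tested; the rule does not use the comparisons between treatments, but the set was taken up with earlier results of these data known.

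A lincRNA is transcribed, capped, usually spliced and often polyadenylated like a messenger RNA, but many stay in the nucleus and many are short-lived there. Some act as scaffolds, as MALAT1 does in nuclear speckles and NEAT1 in paraspeckles, some coat chromatin, as XIST does on the inactive X chromosome, and some are mainly the carriers of a microRNA or a small nucleolar RNA that is cut out of them. For most of the 580 no function is known.

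The promoter sequences of 7 members are shown because these RNAs stood at the ends of the range after the combined treatment, have a high read count (MALAT1) or carry a known lymphoma microRNA (MIR155HG). Each window runs from 250 bases before to 50 bases after the start that RefSeq gives (GRCh38.p14), written 5′ to 3′ on the strand of the gene. Windows were matched by name, which worked for 200 of the 580 members. Capitals mark 6 short motifs searched on both strands, which may overlap: CCAAT (the CCAAT box), CACGTG (the E-box), TGANTCA (letters that include the AP-1 site), TGACGTCA (the cAMP response element), TATAAA (the TATA box) and GGGCGG (the GC box).
AC091814.2, now LINC02470, chr12:9943446-9943745, minus strand: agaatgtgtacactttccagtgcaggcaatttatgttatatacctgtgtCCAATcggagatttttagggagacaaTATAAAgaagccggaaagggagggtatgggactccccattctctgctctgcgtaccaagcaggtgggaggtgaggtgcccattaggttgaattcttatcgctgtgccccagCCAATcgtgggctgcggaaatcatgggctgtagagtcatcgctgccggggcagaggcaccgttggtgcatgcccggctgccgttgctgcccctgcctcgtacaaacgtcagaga
LINC00494, chr20:48359661-48359960, plus strand: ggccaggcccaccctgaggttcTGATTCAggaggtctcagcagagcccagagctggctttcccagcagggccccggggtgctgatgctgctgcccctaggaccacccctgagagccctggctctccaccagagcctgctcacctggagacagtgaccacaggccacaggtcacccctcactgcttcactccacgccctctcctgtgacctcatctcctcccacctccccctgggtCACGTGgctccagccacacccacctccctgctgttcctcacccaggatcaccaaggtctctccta
MALAT1, chr11:65497488-65497787, plus strand: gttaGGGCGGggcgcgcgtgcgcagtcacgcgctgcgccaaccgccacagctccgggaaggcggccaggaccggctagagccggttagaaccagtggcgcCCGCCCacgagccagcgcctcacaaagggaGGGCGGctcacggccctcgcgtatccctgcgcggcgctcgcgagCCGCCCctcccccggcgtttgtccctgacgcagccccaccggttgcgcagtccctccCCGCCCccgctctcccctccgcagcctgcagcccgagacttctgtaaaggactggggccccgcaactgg
MIR155HG, chr21:25561895-25562194, plus strand: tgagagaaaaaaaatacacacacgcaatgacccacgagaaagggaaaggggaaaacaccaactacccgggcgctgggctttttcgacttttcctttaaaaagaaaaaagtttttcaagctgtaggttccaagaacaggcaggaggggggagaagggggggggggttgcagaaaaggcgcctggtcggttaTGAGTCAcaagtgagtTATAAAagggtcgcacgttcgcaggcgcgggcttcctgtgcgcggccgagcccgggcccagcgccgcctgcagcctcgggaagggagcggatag
LINC00158, chr21:25431652-25431951, minus strand: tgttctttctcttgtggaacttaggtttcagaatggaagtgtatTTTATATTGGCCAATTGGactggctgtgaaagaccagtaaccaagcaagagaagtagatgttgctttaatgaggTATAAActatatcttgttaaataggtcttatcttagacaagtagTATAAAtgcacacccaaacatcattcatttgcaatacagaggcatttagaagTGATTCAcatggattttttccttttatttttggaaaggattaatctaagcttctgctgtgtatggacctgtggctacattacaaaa
LINC00152, now CYTOR, chr2:87455177-87455476, plus strand: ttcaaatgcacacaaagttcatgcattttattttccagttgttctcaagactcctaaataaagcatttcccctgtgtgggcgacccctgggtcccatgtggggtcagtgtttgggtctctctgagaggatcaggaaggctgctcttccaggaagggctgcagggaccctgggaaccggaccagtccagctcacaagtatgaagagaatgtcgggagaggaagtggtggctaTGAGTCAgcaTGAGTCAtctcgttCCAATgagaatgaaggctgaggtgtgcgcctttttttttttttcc
MIR210HG, chr11:568408-568707, minus strand: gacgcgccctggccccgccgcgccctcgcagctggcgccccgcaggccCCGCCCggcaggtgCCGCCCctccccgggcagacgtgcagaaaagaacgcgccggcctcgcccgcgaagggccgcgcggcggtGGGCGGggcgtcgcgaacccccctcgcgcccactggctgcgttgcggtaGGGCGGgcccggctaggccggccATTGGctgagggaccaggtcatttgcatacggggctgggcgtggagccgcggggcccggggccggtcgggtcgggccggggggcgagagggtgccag
The windows of AC091814.2, LINC00158 and MIR210HG sit on the start annotated in GENCODE 44, that of LINC00494 27 bases from it, that of MALAT1 98 bases, that of MIR155HG 335 bases and that of LINC00152 646 bases from it.

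The 7 windows differed widely in letters. The MIR210HG and MALAT1 windows held 44 and 37 CG pairs and 4 and 5 GC boxes, against a median of 14 CG pairs over 34943 RefSeq windows of 300 bases and 21 over the 200 member windows. The LINC00158 window held 0 CG pairs, LINC00494 held 3 and LINC00152 held 5. TGANTCA occurred 2 times in the LINC00152 window and 1 time each in those of LINC00494, MIR155HG and LINC00158; 7.72% of all RefSeq windows and 7% of the member windows hold it. TATAAA occurred in the windows of AC091814.2, MIR155HG and LINC00158, and in 11.6% of all windows and 12.5% of those of members. CCAAT was in 34.6% of all windows and 42% of those of members, GGGCGG in 44.9% and 55%, CACGTG in 7.23% and 9%, and TGACGTCA in 1.84% and 3%. These matches are letters in a window and say nothing of which factor binds there.

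Among the 580 members, 14 contain a mature microRNA of RefSeq on their own strand. The 8 below lie in 5 host RNAs whose levels are given later, and are shown to identify them, with the seed (bases 2 to 8) in capitals; each of the 8 has a seed of its own.
hsa-miR-155-5p, in MIR155HG, chr21:25573983-25574006: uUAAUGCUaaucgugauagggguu
hsa-miR-22-3p, in MIR22HG, chr17:1713914-1713935: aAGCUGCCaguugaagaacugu
hsa-miR-210-3p, in MIR210HG, chr11:568112-568133: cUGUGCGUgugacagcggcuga
hsa-miR-193b-3p, in RP11-65J21.3, now MIR193BHG, chr16:14304017-14304038: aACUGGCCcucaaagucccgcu
hsa-miR-365a-3p, in RP11-65J21.3, chr16:14309340-14309361: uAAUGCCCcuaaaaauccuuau
hsa-miR-99a-5p, in MIR99AHG, chr21:16539101-16539122: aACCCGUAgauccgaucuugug
hsa-let-7c-5p, in MIR99AHG, chr21:16539838-16539859: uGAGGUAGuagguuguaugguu
hsa-miR-125b-5p, in MIR99AHG, chr21:16590253-16590274: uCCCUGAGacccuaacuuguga
The libraries were made from polyadenylated RNA, so the counts are those of the host transcripts and not of the microRNAs.

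Most members were scarce. Their mean CPM had a median of 3.41, with 7 members at 100 CPM or more, 111 between 10 and 100, 280 between 2 and 10 and 182 between 1 and 2. XIST alone held 22.8% of the reads of all members, LINC00657 (now NORAD) 6.44%, MALAT1 6.31% and NEAT1 2.78%. In every one of the 4 groups 472 members averaged 1 CPM or more, and 78 were under 1 CPM in DMSO. At the limit that chose them, LINC01240, RP4-564F22.5 and RP11-72M17.1 were just inside at 1.0007, 1.0029 and 1.0096 CPM, and CTD-2325M2.1 and AC104655.3 just outside at 0.9982 and 0.9922 CPM, with 1 more at 0.9987 CPM. Per kilobase of the gene length that the table gives, the mean level was 154 CPM per kb for AC096579.13, 99.8 for LINC00657, 93.8 for XIST, 58.4 for MALAT1, 96.3 for SNHG8 and 9.94 for NEAT1. AC096579.13 lies in the immunoglobulin kappa locus over IGKC, whose reads cannot be told apart from its own.

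The label lincRNA is that of Ensembl version 78 and did not hold for every member. In GENCODE 44, on the same build, 489 of the 580 identifiers remained, 457 of them as long noncoding RNA, and 32 had become another type, 11 of these protein-coding. The kit does not mark the strand. Genes of small RNAs, such as microRNAs and small nucleolar RNAs, were left aside in counting overlaps. In 267 members part of the span is shared with another gene of the table, in 166 of them with a gene that reached 1 CPM. For these, reads of the overlapping gene cannot be told apart from those of the lincRNA, and an overlap with a gene at 1 CPM or more is named below beside the members whose changes are described. The members' median length was 1897 bases, against 5002 for protein-coding genes at 1 CPM or more, and their median GC content was 46.1% (489 members), against 47.6%.

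Library totals ran between 35325563 and 59490178 counts. B cell and mantle cell lymphoma markers were all present (8 of 8 at a median of 1 CPM or more, summed level 2968 to 3128 CPM in the combination, 2472 to 2788 in CS, 2974 to 3017 in KPT-330 and 2166 to 2460 in DMSO). Of the markers of other cells only TRAC (T cells), LYZ (myeloid) and PDGFRB (fibroblast) reached a median of 1 CPM, with the erythroid list summing to at most 0.0603 CPM in any library. The defining T cell genes CD3D and CD2 had a median of 0.0298 and 0 CPM. The summed T cell list, mostly TRAC, was 4.8 to 6.17 CPM in the combination, 8.21 to 9.53 in CS, 19.7 to 21.7 in KPT-330 and 11.5 to 12.7 in DMSO. The 3 KPT-330 libraries were much more alike (biological coefficient of variation 2.87%) than those of the combination (10.9%), CS (11.9%) or DMSO (15.5%). Counts also leaned on GC content differently: the slope of log2 level per 10 points of GC was 0.195 to 0.228 in KPT-330, -0.15 to 0.128 in the combination, -0.229 to 0.059 in CS and -0.314 to 0.087 in DMSO. The part of marker levels, spread and GC slope in the results below was not tested beyond the alternatives that are named.

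Under the combination, more lincRNAs rose than fell. At an adjusted p of 0.05 or less, 317 members (54.7%) were higher and 81 (14%) lower than in DMSO, where 29.3% of all 19460 tested genes were higher and 26.2% lower. KPT-330 alone gave 216 higher (37.2%) and 97 lower (16.7%), against 24.7% and 23.8% of all tested genes. CS alone gave 64 higher (11%) and 19 lower (3.28%), against 3.76% and 5.13% of all tested genes. All 580 members were among the tested genes, and all p-values here are Benjamini-Hochberg adjusted over the tested genes, from edgeR's quasi-likelihood test. The median log2 fold change of the members was 0.46 in the combination, 0.13 in CS and 0.17 in KPT-330, each against DMSO; over all tested genes it was 0.04, -0.01 and 0.04. The 3 comparisons share their DMSO libraries. Leaving out CS library 2 or DMSO library 2 left 37 and 39 higher in CS, and leaving out CS library 2, CS library 3, DMSO library 2 or DMSO library 3 left 11, 10, 10 and 12 lower. With CS and DMSO fitted alone 17 were higher and 4 lower, after GC correction 119 and 32, and with scaling by library size alone 108 were higher and 16 lower.

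Members that are below 1 CPM in a control can enter the list through the treated libraries, so the counts were also taken over the 472 members at 1 CPM or more in every group. Of these, 249 (52.8%) were higher and 67 (14.2%) lower in the combination than in DMSO, 59 and 14 in CS, and 164 and 80 in KPT-330. The 313 members whose span touches no other gene, genes of small RNAs left aside, gave 176 higher (56.2%) and 38 lower (12.1%) in the combination, 36 and 11 in CS, and 120 and 47 in KPT-330. The 91 members that GENCODE 44 no longer holds gave a lower share, 29 higher (31.9%) and 14 lower (15.4%) in the combination, against 273 (59.7%) and 61 (13.3%) of the 457 still annotated as long noncoding RNA. This difference in shares was not tested.

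Antisense RNAs were called in like shares. Of 619 antisense RNAs at 1 CPM or more, 360 (58.2%) were higher and 67 (10.8%) lower in the combination than in DMSO, and 216 and 84 in KPT-330. Protein-coding genes at 1 CPM or more leaned the other way, with 27.4% higher and 35.1% lower in the combination. Scaling by library size alone moved the median of all genes by 0.18 (log2) in the combination and 0.16 in KPT-330; the members' medians then stood at 0.64 and 0.33, with 373 higher and 52 lower in the combination and 280 higher and 62 lower in KPT-330. After a correction for GC content 318 members were higher and 95 lower in the combination, and 227 higher and 97 lower in KPT-330.

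**Figure D1:**
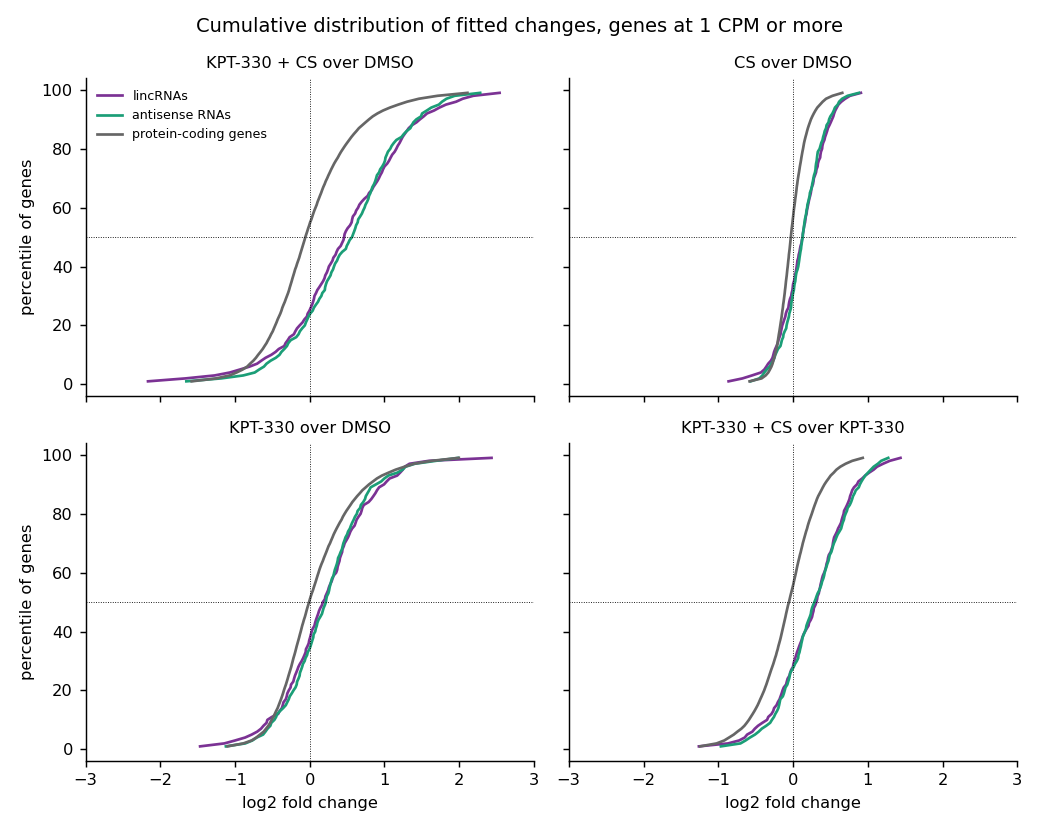
Cumulative distribution of the log2 fold change (x axis) over the percentiles (y axis) of the 580 lincRNAs, 619 antisense RNAs and 11489 protein-coding genes at 1 CPM or more, in 4 comparisons. The lincRNA curve lies right of the protein-coding curve at the median in every panel (0.46 against -0.06 for the combination over DMSO), and close to the antisense curve (0.57 there).

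The share of each library's counts that fell on the 580 members was also taken, without a fit and on library totals. It was 0.971, 0.97 and 1.03% in the combination, 0.807, 0.788 and 0.764% in CS, 0.803, 0.806 and 0.798% in KPT-330 and 0.673, 0.71 and 0.729% in DMSO. Each treated group lay wholly above DMSO, and the combination wholly above KPT-330, while CS and KPT-330 overlapped. The ratio to DMSO was 1.41 for the combination, 1.12 for CS and 1.14 for KPT-330, each with an exact two-sided permutation p of 0.1, the smallest that 3 against 3 libraries allow. Without XIST, MALAT1, NEAT1 and LINC00657 the ratio of the combination to DMSO was 1.42. Scaling by library totals itself moved the median of all genes by 0.18 (log2) in the combination, 0.06 in CS and 0.16 in KPT-330. The share that fell on the antisense RNAs at 1 CPM or more had ratios to DMSO of 1.45, 1.1 and 1.16. How much of the members' ratios is particular to lincRNAs was not tested. In RNA from a whole culture, more cells with an RNA and more of it per cell cannot be told apart.

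**Figure D2:**
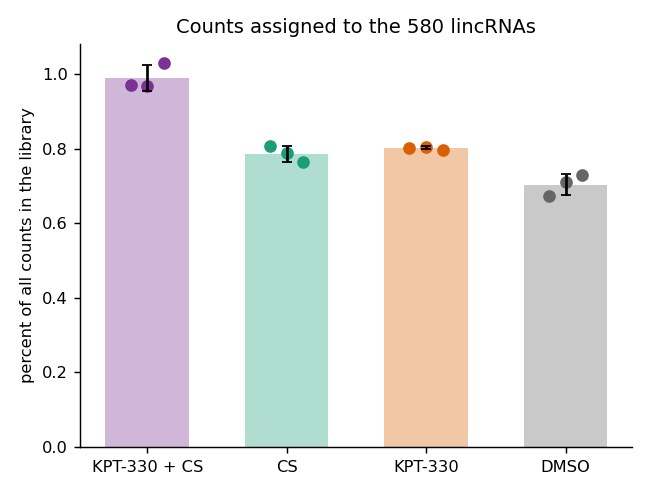
Percent of all counts of a library that fell on the 580 lincRNAs (y axis), by group; points are libraries, bars the mean and error bars the SD of 3 libraries. The combination averaged 0.989%, CS 0.786%, KPT-330 0.803% and DMSO 0.704%.

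Among the 10 most abundant members MALAT1 had the largest log2 fold change in the combination over DMSO. MALAT1 (chr11:65497762-65506516, hg38) is a long nuclear RNA of splicing speckles. Its TMM-scaled level was 989, 1002 and 1153 CPM in the combination, 338, 306 and 287 in CS, 482, 484 and 473 in KPT-330, and 183, 208 and 228 in DMSO. The 4 groups did not overlap. The log2 fold change was 2.35 ± 0.09 (SE) in the combination (adjusted p = 2.84e-10), 0.59 ± 0.09 in CS (adjusted p = 0.00114) and 1.22 ± 0.09 in KPT-330 (adjusted p = 1.91e-07), each over DMSO. Against KPT-330 alone the combination was 1.13 ± 0.09 higher (adjusted p = 9.73e-07). The interaction, that is the effect of CS in the presence of KPT-330 minus its effect in DMSO, was 0.54 ± 0.12 (adjusted p = 0.0107). NEAT1, the RNA that builds paraspeckles, lies on the same chromosome arm (chr11:65422774-65445540). Its level was 317, 308 and 355 CPM in the combination, 202, 195 and 183 in CS, 218, 216 and 207 in KPT-330, and 159, 170 and 183 in DMSO. The combination stood above the other groups, and CS touched DMSO at its low end. NEAT1 rose by 0.94 ± 0.07 in the combination (adjusted p = 8.5e-08) and by 0.32 ± 0.07 in KPT-330 (adjusted p = 0.00156). Its value in CS, 0.18 ± 0.07, missed the threshold (adjusted p = 0.125), and passed it in 4 alternative fits, among them that without DMSO library 3 (0.25).

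Of the 6 listed nuclear and chromatin RNAs, MALAT1 and NEAT1 among them, 3 were higher and 1 lower in the combination than in DMSO, and in KPT-330 2 were higher and 2 lower. Of all tested genes 29.3% were higher and 26.2% lower in the combination, and 24.7% and 23.8% in KPT-330. Besides MALAT1 and NEAT1, JPX was higher and MIAT lower in the combination, and MIAT and FTX were lower in KPT-330. MIAT, a nuclear RNA found in neurons and lymphoid cells, was at 55.2, 57.2 and 61.8 CPM in the combination, 87.3, 84.2 and 86.8 in CS, 35.8, 34.2 and 34.3 in KPT-330, and 75.7, 83 and 84.2 in DMSO. KPT-330 was lowest, the combination next, and CS and DMSO met at 84.2 CPM. MIAT fell by 1.22 ± 0.06 (log2) in KPT-330 (adjusted p = 6.64e-09) and by 0.48 ± 0.06 in the combination (adjusted p = 1.26e-05), and the combination was 0.74 ± 0.06 above KPT-330 (adjusted p = 1.43e-06). MIAT shares exons with MIATNB, which changed by -0.56 ± 0.09 in KPT-330. XIST, which silences the inactive X chromosome, was at 1574, 1658 and 1829 CPM in the combination, 2136, 2061 and 1896 in CS, 1792, 1800 and 1773 in KPT-330, and 1724, 2002 and 2183 in DMSO. Its change of -0.22 ± 0.08 in the combination passed (adjusted p = 0.0349) and was lost in 8 of the alternative fits, among them those without combination library 1 (-0.18), combination library 2 (-0.21), DMSO library 2 (-0.22) or DMSO library 3 (-0.12). JPX, a noncoding activator of XIST, was 0.22 ± 0.06 higher in the combination (adjusted p = 0.00594). It shares exons with FTX, which fell by 0.37 ± 0.08 in KPT-330 (adjusted p = 0.00312) and was at -0.19 with an adjusted p of 0.056 after GC correction. FIRRE, which anchors chromatin in the nucleus, averaged 17.4 ± 0.864 CPM in the combination, 12.7 ± 1.49 in CS, 16.4 ± 0.827 in KPT-330 and 15.2 ± 1.08 in DMSO (SD, n = 3 each). It passed in none of the 3 comparisons with DMSO in the fit used for the calls. In the combination it passed with a stricter filter (0.23), library size alone (0.38), GC correction (0.21) or without DMSO library 3 (0.28). In KPT-330 it passed with library size alone (0.27) or GC correction (0.24).

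The proteins that work with these RNAs were described from 3 lists of coding genes. All 11 table rows of the 10 listed paraspeckle proteins (TARDBP has 2) were lower in the combination than in DMSO, with a median log2 fold change of -0.53, against 0.04 over all tested genes. SFPQ, an RNA-binding protein of paraspeckles, averaged 432 ± 22.2 CPM in the combination, 778 ± 37.6 in CS, 579 ± 1.73 in KPT-330 and 978 ± 78.8 in DMSO (SD, n = 3 each) and fell by 1.18 ± 0.07 in the combination (adjusted p = 7.09e-09). PSPC1, a paraspeckle core protein, fell by 1.00 ± 0.06 and RBM14 by 1.13 ± 0.12. In KPT-330 8 of the 11 rows were lower and in CS 4. For the coding genes of all 3 lists the background is the protein-coding genes at 1 CPM or more. Of this background 27.4% were higher and 35.1% lower in the combination, 25.6% and 32% in KPT-330, and 4% and 7.52% in CS. Of 24 genes of noncoding RNA decay, 10 were lower in the combination, among them the nuclear exonuclease XRN2 (-0.66 ± 0.06), and 1, the cytoplasmic exonuclease XRN1 (0.52 ± 0.08), was higher. In KPT-330 12 of the 24 were lower and 3 higher. Of 10 genes of RNA export, 5 were lower in the combination, among them ALYREF (-0.97 ± 0.21), an mRNA export adaptor, and in KPT-330 3 were lower and 1 higher.

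**Figure D3:**
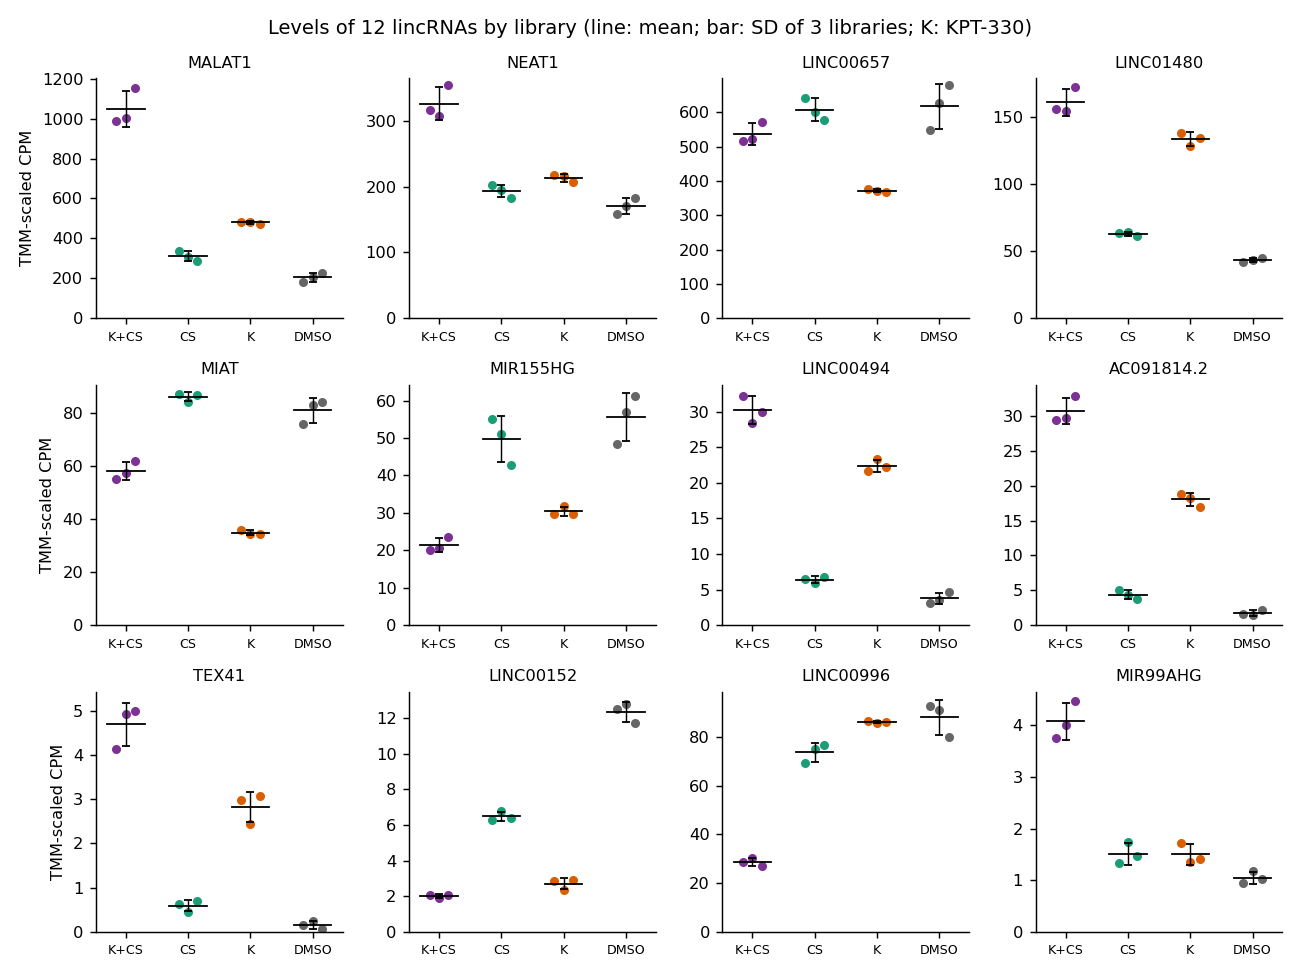
TMM-scaled CPM (y axis, from 0) of 12 lincRNAs in the 3 libraries of KPT-330 + CS, CS, KPT-330 and DMSO; points are libraries, lines the mean and error bars the SD. MALAT1 reached 989 to 1153 CPM in the combination against 183 to 228 in DMSO, and LINC00996 was at 27 to 30.3 CPM in the combination with the other groups at 69.4 or above.

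LINC00657, or NORAD, a cytoplasmic RNA that binds Pumilio proteins and is induced by DNA damage, was the second most abundant member. It stood at 515, 521 and 573 CPM in the combination, 643, 601 and 577 in CS, 375, 371 and 367 in KPT-330, and 548, 626 and 678 in DMSO. All KPT-330 libraries were below all others. It fell by 0.73 ± 0.07 in KPT-330 (adjusted p = 4.5e-06), and the combination was 0.53 ± 0.07 above KPT-330 (adjusted p = 0.000127). The change in the combination over DMSO was -0.20 ± 0.07 (adjusted p = 0.0326) and did not pass in 8 of the alternative fits, among them those without combination library 1 (-0.18), combination library 2 (-0.18), DMSO library 2 (-0.2) or DMSO library 3 (-0.11). The interaction was 0.55 ± 0.11 (adjusted p = 0.00396).

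Of the 5 listed members linked to the p53 response, 4 were higher in the combination than in DMSO and 1, NORAD, was lower, where 54.7% of all members and 29.3% of all tested genes were higher. LINC01021, now PURPL, is induced by p53 and restrains it. It was at 116, 125 and 133 CPM in the combination, 64.1, 58.2 and 57.8 in CS, 75.7, 78.8 and 76.3 in KPT-330, and 42.1, 47.6 and 53.4 in DMSO, with no overlap between any groups. The log2 fold change was 1.39 ± 0.08 in the combination (adjusted p = 1.22e-08), 0.33 ± 0.08 in CS (adjusted p = 0.0234) and 0.69 ± 0.08 in KPT-330 (adjusted p = 1.55e-05). Its call in CS was lost in 4 alternative fits, among them those without CS library 1 (0.28), CS library 2 (0.35) or DMSO library 2 (0.33). TP53TG1, named as a p53 target, averaged 4.09 ± 0.855 CPM in the combination, 2.55 ± 0.455 in CS, 2.55 ± 0.28 in KPT-330 and 1.89 ± 0.352 in DMSO (SD, n = 3 each) and was 1.11 ± 0.19 higher in the combination than in DMSO (adjusted p = 0.000245). PVT1, which lies 53099 bases from MYC, was at 9.6, 10.7 and 8.82 CPM in the combination, 5.41, 6.39 and 5.5 in CS, 11.4, 11 and 11 in KPT-330, and 6.41, 6.26 and 6.16 in DMSO. It was 0.63 ± 0.10 higher in the combination (adjusted p = 0.00012) and 0.82 ± 0.10 higher in KPT-330 (adjusted p = 1.89e-05). MYC itself changed by 1.30 ± 0.08 in the combination and 0.74 ± 0.08 in KPT-330.

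The 2 RNAs with the highest log2 fold changes in the combination had few or no reads in DMSO, and reached a mean of 1 CPM only through the libraries with KPT-330. RP11-218M11.1 (chr17:30564057-30565576) had 153, 98 and 152 reads in the combination, 0 in each CS library, 63, 51 and 67 in KPT-330, and 0 in each DMSO library. Against a floor of 3 reads over the 3 DMSO libraries it was at least 122-fold higher in the combination and at least 49.3-fold higher in KPT-330. The combination exceeded KPT-330 by 1.31 ± 0.17 (log2, adjusted p = 0.000354). TEX41 (chr2:144667967-145182649) had 206, 185 and 283 reads in the combination, 27, 22 and 41 in CS, 156, 123 and 175 in KPT-330, and 8, 10 and 3 in DMSO. Its log2 fold change was 4.85 ± 0.26 in the combination (adjusted p = 6.14e-09), 1.88 ± 0.33 in CS (adjusted p = 0.00369) and 4.12 ± 0.27 in KPT-330 (adjusted p = 9.44e-08).

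AC091814.2 and LINC00494, whose promoters are printed above, combined a large rise with levels near 30 CPM in the combination. AC091814.2 (LINC02470, chr12:9936579-9943495) was at 29.5, 29.8 and 32.9 CPM in the combination, 5.06, 4.3 and 3.71 in CS, 18.9, 18.3 and 17 in KPT-330, and 1.64, 1.37 and 2.16 in DMSO. Its log2 fold change was 4.16 ± 0.15 in the combination (adjusted p = 1.99e-10), 1.33 ± 0.15 in CS (adjusted p = 0.000217) and 3.39 ± 0.15 in KPT-330 (adjusted p = 2.47e-09). The nearest coding gene, CLEC2B, 66443 bases away, changed by 0.51 ± 0.10 in the combination. LINC00494 (chr20:48359950-48370629) was at 32.3, 28.4 and 30 CPM in the combination, 6.49, 5.87 and 6.8 in CS, 21.7, 23.4 and 22.2 in KPT-330, and 3.14, 3.52 and 4.66 in DMSO. It rose by 3.01 ± 0.13 in the combination (adjusted p = 6.58e-10) and by 2.58 ± 0.12 in KPT-330 (adjusted p = 6.05e-09). In both, the groups were ordered combination, KPT-330, CS, DMSO with no overlap.

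LINC01480 joined a high level to a large change. This RNA (chr19:41535183-41536904) was at 156, 154 and 172 CPM in the combination, 63.6, 64.1 and 61.3 in CS, 138, 128 and 134 in KPT-330, and 42.2, 43 and 44.8 in DMSO. The log2 fold change was 1.89 ± 0.06 in the combination (adjusted p = 3.84e-11), 0.54 ± 0.06 in CS (adjusted p = 0.000108) and 1.62 ± 0.06 in KPT-330 (adjusted p = 5.05e-10). Its interaction was negative, -0.27 ± 0.08 (adjusted p = 0.0377). Members on either side of it, AC006129.1 and AC006129.2, had log2 fold changes of 1.21 and 0.98 in the combination; AC006129.2 shares exons with CEACAM21.

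The remaining named risers of the combination were RP4-610C12.4, RP1-80N2.3, AC020743.3 and RP3-431P23.5, with log2 fold changes of 2.55, 2.54, 3.06 and 2.40. RP4-610C12.4 and RP3-431P23.5 had 47 and 59 reads over the 3 DMSO libraries, and 65 and 101 over the 3 CS libraries. These 2 and AC020743.3 also reached a mean of 1 CPM only through the libraries with KPT-330, which chose them for a rise. AC020743.3 averaged 2.31 ± 0.163 CPM in the combination, 0.377 ± 0.0732 in CS, 3.41 ± 0.293 in KPT-330 and 0.277 ± 0.0765 in DMSO (SD, n = 3 each), and its combination was 0.56 ± 0.15 below KPT-330 (adjusted p = 0.01). In KPT-330 alone the 8 highest also held LINC01134, RP11-480G7.1 and RP11-57A19.2, with log2 fold changes of 2.18, 2.39 and 1.67. LINC01134 and RP11-480G7.1, with 96 and 68 reads over the DMSO libraries and 124 and 72 over those of CS, reached the limit in the same way. RP11-480G7.1 lies 2954 bases from MYLK3, which changed by 2.34 ± 0.15 in KPT-330. The study's own limit was an adjusted p of 0.05 or less with an absolute log2 fold change over 2. Past it were 20 of the 580 members higher and 8 lower in the combination, against 3.55% and 0.812% of all tested genes. In KPT-330 8 members were higher and 3 lower, against 2.69% and 0.334% of all tested genes. The tested genes include scarcer ones than the members. Of the 14214 genes at 1 CPM or more, 182 were higher and 65 lower past the limit in the combination, and 134 and 21 in KPT-330. Over the 472 members at 1 CPM or more in every group these counts were 7 and 4 in the combination, and 2 and 1 in KPT-330. In CS 0 members passed it in either direction by edgeR, by DESeq2 or at an unadjusted p under 0.05 (0.0874% of all tested genes passed it higher and 0.0565% lower).

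**Figure D4:**
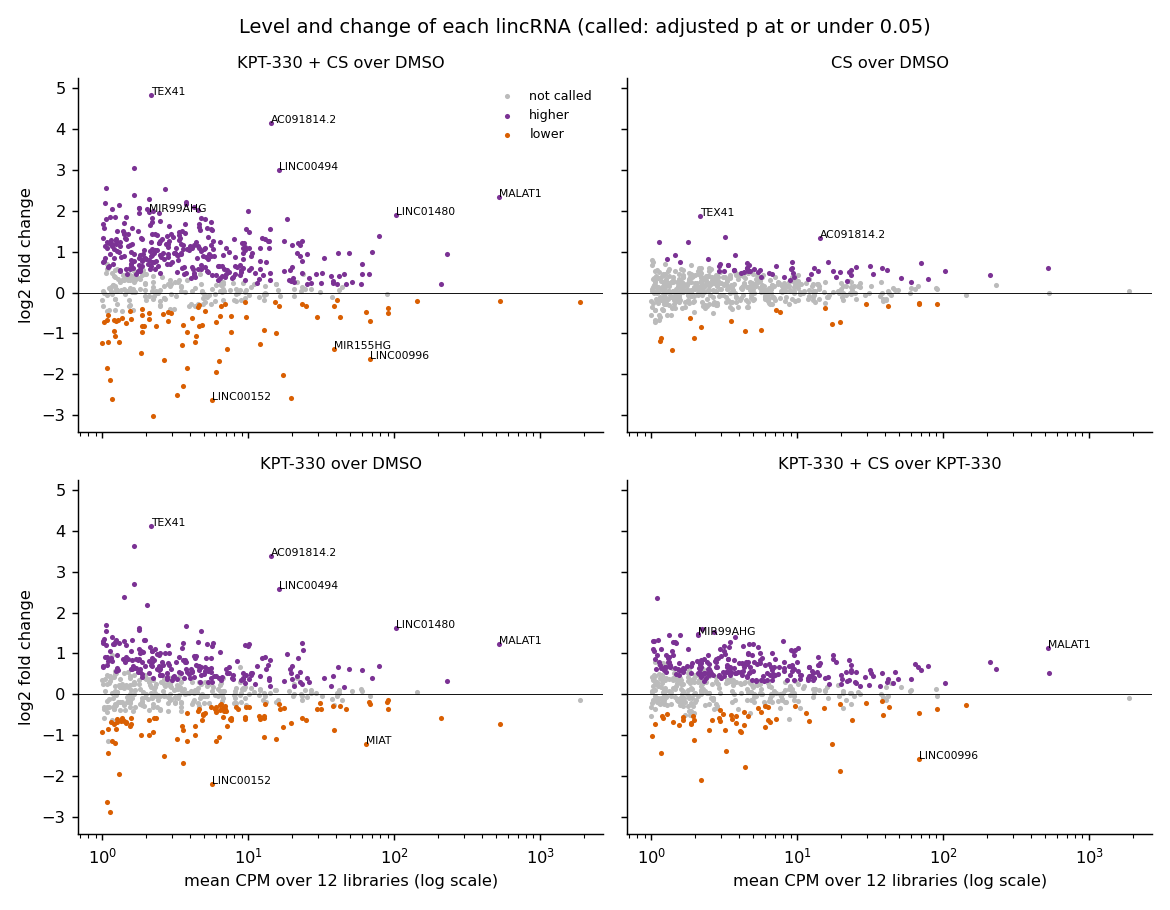
Mean CPM over the 12 libraries (x axis, log scale) against log2 fold change (y axis) of the lincRNAs in 4 comparisons; colours mark members called higher, lower or not called at an adjusted p of 0.05. RP11-218M11.1, with 0 reads in DMSO and in CS, is left out of the panels over DMSO; the largest plotted change is that of TEX41, 4.85 in the combination.

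LINC00152, now CYTOR, a mostly cytoplasmic RNA raised in many tumours, was among the lowest members of all 3 comparisons with DMSO. It was at 2.05, 1.87 and 2.07 CPM in the combination, 6.3, 6.78 and 6.41 in CS, 2.84, 2.34 and 2.92 in KPT-330, and 12.5, 12.8 and 11.7 in DMSO. The 4 groups did not overlap. It fell by 2.62 ± 0.11 in the combination (adjusted p = 7.12e-10), by 0.92 ± 0.10 in CS (adjusted p = 0.000159) and by 2.19 ± 0.11 in KPT-330 (adjusted p = 6.57e-09). LINC00152 has a near-identical copy, the gene the table calls MIR4435-1HG, so the split of its reads is uncertain. RP5-1031D4.2, now LINC02642, was at 4.83, 6.05 and 5.71 CPM in the combination, 21.7, 21.5 and 18.1 in CS, 20.2, 20.7 and 20.8 in KPT-330, and 29.6, 33.3 and 37.1 in DMSO. It fell by 2.59 ± 0.11 in the combination (adjusted p = 8.11e-10), by 0.71 ± 0.10 in CS and by 0.70 ± 0.10 in KPT-330. The nearest coding gene, SFMBT2, a Polycomb-group protein, changed by -1.03 ± 0.05 in the combination.

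LINC00158 and RP3-340N1.2 also fell most in the combination. LINC00158 (chr21:25385820-25431701) had 32, 16 and 24 reads in the combination, 98, 122 and 121 in CS, 108, 110 and 129 in KPT-330, and 175, 148 and 211 in DMSO. Its log2 fold change of -3.03 ± 0.20 in the combination (adjusted p = 4.13e-08) compares with -0.85 ± 0.17 in CS and -0.92 ± 0.17 in KPT-330. RP3-340N1.2 was at 7.16, 6.93 and 7.54 CPM in the combination, 16.9, 17.3 and 18.2 in CS, 16.7, 16.3 and 17.5 in KPT-330, and 30.3, 28.8 and 29.6 in DMSO, a fall of 2.03 ± 0.07 in the combination (adjusted p = 1.3e-10). In both RNAs CS and KPT-330 lay between the combination and DMSO. CTD-2308B18.4 fell by 2.50 ± 0.14 and RP11-553K8.2 by 1.94 ± 0.12 in the combination. LINC00877 fell by 2.28 ± 0.13 in the combination and by 1.68 ± 0.13 in KPT-330, and LINC00870, whose span overlaps it, by 2.13 ± 0.29 and 2.88 ± 0.30. LINC00870 had 17, 19 and 18 reads in the combination, 100, 120 and 136 in CS, 4, 17 and 15 in KPT-330, and 74, 70 and 74 in DMSO. Its reads and those of LINC00877 cannot be told apart where they overlap. LINC00870 reached a mean of 1 CPM only through the libraries without KPT-330, which chose it for a fall.

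Of the 8 listed members that host a microRNA, 2 were higher and 4 lower in the combination than in DMSO, and 3 were higher and 5 lower in KPT-330. Over all 29 members with a microRNA gene inside their span the counts were 16 and 7 in the combination, and 11 and 6 in KPT-330. Of all tested genes 29.3% were higher and 26.2% lower in the combination, and 24.7% and 23.8% in KPT-330. Of all 580 members 54.7% were higher and 14% lower in the combination, and 37.2% and 16.7% in KPT-330. MIR155HG, the precursor of miR-155 and a product of activated B cells, was at 20, 20.7 and 23.5 CPM in the combination, 55.1, 51 and 42.9 in CS, 29.8, 31.8 and 29.6 in KPT-330, and 48.5, 56.9 and 61.2 in DMSO. It fell by 1.37 ± 0.11 in the combination (adjusted p = 1.5e-07) and by 0.87 ± 0.10 in KPT-330 (adjusted p = 1.77e-05), and the combination was 0.51 ± 0.10 below KPT-330 (adjusted p = 0.00209). In CS the libraries overlapped those of DMSO (adjusted p = 0.394).

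MIR210HG, the host of the hypoxia-induced miR-210, was at 0.543, 0.213 and 0.353 CPM in the combination, 0.851, 0.889 and 1.44 in CS, 0.971, 1.25 and 0.91 in KPT-330, and 2.96, 2.13 and 1.82 in DMSO. It fell by 2.60 ± 0.31 in the combination (adjusted p = 1.07e-05) and by 1.15 ± 0.27 in KPT-330 (adjusted p = 0.00331). Its fall in CS, 1.1 ± 0.27 (adjusted p = 0.0237), was lost in 6 alternative fits, among them those without CS library 1 (-0.97), CS library 2 (-0.99), DMSO library 1 (-0.88) or DMSO library 2 (-1.16). RP11-65J21.3, the host of miR-193b and miR-365a, fell by 1.85 ± 0.28 in the combination (adjusted p = 9.36e-05) and by 2.64 ± 0.30 in KPT-330 (adjusted p = 1.23e-05). MIR22HG, which lies over WDR81, was at 0.624, 0.96 and 1.1 CPM in the combination, 1.06, 2.11 and 2.37 in CS, 0.761, 0.475 and 0.385 in KPT-330, and 2.44, 1.69 and 2.11 in DMSO. It fell by 1.95 ± 0.33 in KPT-330 (adjusted p = 0.000321) and by 1.22 ± 0.31 in the combination (adjusted p = 0.00476). MIR210HG and RP11-65J21.3 reached a mean of 1 CPM only through the DMSO libraries, which chose them for a fall. MIR22HG reached it only through the libraries without KPT-330. MIR99AHG, the host of miR-99a, let-7c and miR-125b, went the other way, at 3.76, 4 and 4.47 CPM in the combination, 1.33, 1.74 and 1.46 in CS, 1.73, 1.35 and 1.42 in KPT-330, and 0.945, 1.17 and 1.02 in DMSO. It rose by 1.97 ± 0.16 in the combination (adjusted p = 2.48e-07) and by 0.52 ± 0.17 in KPT-330 (adjusted p = 0.0202), a call lost in 4 alternative fits, among them those without KPT-330 library 1 (0.41) or DMSO library 1 (0.45). MIR503HG was 0.61 ± 0.19 higher in KPT-330 (adjusted p = 0.0157) and lost the call without KPT-330 library 1 (0.5) or DMSO library 2 (0.53).

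Hosts of small nucleolar RNAs, which guide the modification of other RNAs, include 4 listed members. Of these, 1 was higher and 1 lower in the combination, and 2 were lower in KPT-330. SNHG15 was at 87.4, 80.8 and 81.5 CPM in the combination, 84.2, 91.2 and 93.5 in CS, 83, 84.7 and 86.6 in KPT-330, and 114, 109 and 104 in DMSO. All treated libraries were below all DMSO libraries. It was lower in the combination (-0.38 ± 0.06, adjusted p = 6.99e-05), in CS (-0.28 ± 0.06, adjusted p = 0.00942) and in KPT-330 (-0.36 ± 0.06, adjusted p = 0.000189). EPB41L4A-AS1 was 0.20 ± 0.07 higher in the combination (adjusted p = 0.0213), which 5 alternative fits lost, among them those without combination library 3 (0.18) or DMSO library 1 (0.14). SNHG8 was -0.18 ± 0.07 in KPT-330 over DMSO (adjusted p = 0.0418), a call that 13 alternative fits lost, among them those without any 1 KPT-330 library (-0.2 to -0.14), DMSO library 2 (-0.19) or DMSO library 3 (-0.13). SNHG9 averaged 5 ± 1.14 CPM in the combination, 4.63 ± 1 in CS, 4.8 ± 0.148 in KPT-330 and 4.79 ± 1.36 in DMSO (SD, n = 3 each). It passed in no comparison with DMSO in the fit used for the calls. After GC correction it was at -0.75 in KPT-330 over DMSO (adjusted p = 8.64e-06). The combination over KPT-330 was then at 0.55 (adjusted p = 0.000271). With the listed hosts that the table gives another type, 3 of 18 were higher and 5 lower in the combination, and 3 and 9 in KPT-330, against 29.3% and 26.2% of all tested genes in the combination and 24.7% and 23.8% in KPT-330.

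Among the 4 listed lymphocyte members, 2 were higher and 2 lower in the combination than in DMSO, where 29.3% of all tested genes were higher and 26.2% lower. LINC00926, a B cell RNA, was at 31.4, 35.2 and 32.8 CPM in the combination, 26.9, 28.4 and 24.4 in CS, 23.9, 21.8 and 22.6 in KPT-330, and 16.8, 16.9 and 18 in DMSO. It rose by 0.94 ± 0.08 in the combination (adjusted p = 2.51e-07), 0.62 ± 0.08 in CS (adjusted p = 0.000336) and 0.40 ± 0.08 in KPT-330 (adjusted p = 0.000772), the last being 0.24 with an adjusted p of 0.0766 after GC correction. LINC00528 was 0.66 ± 0.14 higher in the combination (adjusted p = 0.00167). RP11-693J15.5, now LINC02397, the fifth most abundant member, was at 221, 225 and 253 CPM in the combination, 284, 270 and 256 in CS, 134, 136 and 134 in KPT-330, and 178, 206 and 221 in DMSO. It was 0.58 ± 0.08 lower in KPT-330 (adjusted p = 4.3e-05) and 0.42 ± 0.08 higher in CS (adjusted p = 0.00488), and it shares exons with RP11-693J15.4, which changed by -0.62 ± 0.08 and 0.37 ± 0.08. RP11-94L15.2 lies inside IKZF3, a lymphocyte transcription factor, and moved with it, -0.50 against -0.52 ± 0.05 in the combination. Its reads cannot be told apart from those of IKZF3.

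Among RNAs highest in CS over DMSO, RP5-887A10.1, now LINC01781, was the most abundant. It was at 88.6, 89.2 and 103 CPM in the combination, 84.8, 76.3 and 72.5 in CS, 62.2, 62.3 and 62.8 in KPT-330, and 42.8, 48.4 and 50.3 in DMSO. It rose by 0.99 ± 0.08 in the combination (adjusted p = 2.48e-07), 0.72 ± 0.08 in CS (adjusted p = 0.000162) and 0.41 ± 0.08 in KPT-330 (adjusted p = 0.000971). SNX29P2 had the highest value in CS among members with at least 2 CPM in the higher group, 1.37 ± 0.19 (adjusted p = 0.000803), and another row of the same name overlaps it. AC012354.6, RP11-57A19.2, RP11-234B24.4 and RP11-9M16.2 rose by 0.72, 0.91, 0.76 and 0.74 in CS, RP11-234B24.4 lying inside GALNT8. RP11-9M16.2 lost its call without CS library 2 (0.69), DMSO library 2 (0.65) or DMSO library 3 (0.64). With CS and DMSO fitted alone, the calls in CS of AC012354.6, RP11-57A19.2, RP11-9M16.2, LINC00494, LINC00158, SNHG15, RP11-693J15.5 and RP11-159D12.2 were lost too.

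Among the RNAs lowest in CS, RP1-86C11.7, which lies 2676 bases from the histone gene HIST1H2BJ, was at 2.33, 2.16 and 2.38 CPM in the combination, 2.55, 2.54 and 2.35 in CS, 7.76, 8.06 and 7.68 in KPT-330, and 4.09, 4.7 and 5.6 in DMSO. It fell by 1.06 ± 0.12 in the combination (adjusted p = 8.77e-06) and 0.95 ± 0.12 in CS (adjusted p = 0.000544) and rose by 0.71 ± 0.12 in KPT-330 (adjusted p = 0.000253). RP11-159D12.2 fell by 0.70 in CS. It shares exons with the coding RP11-159D12.5, which averaged 183 CPM in CS and 207 CPM in DMSO (log2 fold change -0.18 ± 0.07, not called). Their reads cannot be told apart. AC011747.4 fell by 0.62 in CS. AC011747.4 lost its call in 10 alternative fits, among them those that left out any 1 CS or DMSO library (-0.72 to -0.5).

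In the combination 246 members (42.4%) were higher and 58 (10%) lower than in KPT-330 alone, where 19.7% of all tested genes were higher and 17.9% lower. The members' median was 0.31, against -0.00 over all tested genes. Over the 472 members at 1 CPM or more in every group 204 were higher and 48 lower, and 253 of the 619 antisense RNAs were higher and 36 lower. ST3GAL5-AS1, 266 bases from ST3GAL5, was at 4.97, 4.19 and 4.77 CPM in the combination, against 1.54, 1.54 and 1.56 in KPT-330, a log2 fold change of 1.59 ± 0.13 (adjusted p = 1.61e-06). ST3GAL5, a ganglioside synthesis enzyme, changed by 0.79 ± 0.07. RP1-80N2.3 was at 6.06, 5.6 and 6.62 CPM in the combination, against 2.25, 2.12 and 2.01 in KPT-330 (1.52 ± 0.13, adjusted p = 3.27e-06). SERPINB9P1, a pseudogene transcript near SERPINB9, was at 4.24, 4.45 and 4.54 CPM in the combination, against 1.6, 1.56 and 1.57 in KPT-330 (1.48 ± 0.12, adjusted p = 1.63e-06). In each of these 3 RNAs all libraries of the combination were above all those of KPT-330. LINC01058 was 1.40 ± 0.16 higher (adjusted p = 2.64e-05), RP11-456O19.2 1.44 ± 0.23 (adjusted p = 0.000296), and AP001432.14, which overlaps DSCR9 and DSCR3, 1.44 ± 0.21 (adjusted p = 0.000157). RP11-456O19.2 reached a mean of 1 CPM only through the combination, which chose it for a rise there.

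CH507-513H4.1 had the highest value against KPT-330, 2.35 ± 0.74 (adjusted p = 0.0245), on uneven libraries. It had 108, 95 and 96 reads in the combination, 47, 57 and 12 in CS, 51, 10 and 5 in KPT-330, and 7, 55 and 55 in DMSO. Its call was lost in 7 alternative fits, among them those without combination library 2 (2.21), KPT-330 library 2 (2.02) or KPT-330 library 3 (1.84). CH507-513H4.1 also reached a mean of 1 CPM only through the combination, which chose it for a rise there. At the other end, LINC00996 (chr7:150433654-150448140), an RNA at the lymphoid GIMAP cluster, was at 28.8, 30.3 and 27 CPM in the combination, 69.4, 75.1 and 76.9 in CS, 86.5, 85.8 and 86.2 in KPT-330, and 92.9, 91.3 and 80 in DMSO. The combination stood apart from all other groups, and KPT-330 and DMSO overlapped (adjusted p = 0.724). The combination was 1.59 ± 0.07 below KPT-330 (adjusted p = 1.02e-08) and 1.62 ± 0.07 below DMSO (adjusted p = 7.98e-10). GIMAP8, a GTPase of lymphocytes 2490 bases away, was 0.90 ± 0.05 below KPT-330 in the combination. LINC00158 (-2.11 ± 0.21), RP5-1031D4.2 (-1.89 ± 0.11) and RP1-86C11.7 (-1.77 ± 0.12) were the lowest named members against KPT-330, and RP11-713N11.5 was at 1.27, 1.65 and 2.01 CPM in the combination, against 3.9, 3.56 and 3.38 in KPT-330 (-1.13 ± 0.19, adjusted p = 0.000547).

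Between the single drugs, 105 members (18.1%) were higher and 133 (22.9%) lower in CS than in KPT-330, near the 20.2% and 22.6% of all tested genes. LINC00870 was 3.38 ± 0.29 higher in CS (adjusted p = 1.49e-06), LINC00877 1.82 ± 0.13 (adjusted p = 2.13e-07) and RP11-348P10.2 1.58 ± 0.15 (adjusted p = 3.75e-06). LINC00870 reached a mean of 1 CPM only through the libraries without KPT-330, which chose it for a difference in this direction. LINC00263, now OLMALINC, 8781 bases from the fatty acid desaturase gene SCD, was 1.5 ± 0.14 higher (adjusted p = 2.67e-06). The lowest in CS relative to KPT-330 were AC020743.3 (-3.18 ± 0.19), RP11-480G7.1 (-2.51 ± 0.22), TEX41 (-2.24 ± 0.21) and RP3-431P23.5 (-2.13 ± 0.25). As given above, all of these reached a mean of 1 CPM only through the libraries with KPT-330.

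The interaction between CS and KPT-330 was positive in 87 members (15%) and negative in 35 (6.03%), against 8.04% and 6.62% of all tested genes. Of the 246 members higher in the combination than in KPT-330, 79 had a positive interaction, 1 a negative one and 166 neither. The count of 87 was 57 without combination library 2, 53 without combination library 3, 54 and 56 without CS library 2 or 3, 50, 53 and 52 without KPT-330 library 1, 2 or 3, and 53 without DMSO library 2. Of the 154 members with a single exon in GENCODE 44, 39 were positive (25.3%) and 6 negative (3.9%), and of the 335 with 2 or more exons 43 (12.8%) and 23 (6.87%). The difference between these shares was not tested.

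Members near each other, and members near coding genes, were compared as a description. Spans within 50 kb of each other joined 102 members into 45 loci with 57 adjacent pairs. In the combination over DMSO both partners were higher in 22 pairs, both lower in 4 and opposite in 0, and 31 pairs held at least 1 member not called; 54.7% of all members were higher there. Opposite calls were made in 3 pairs in KPT-330, in 1 in CS and in 1 in the combination over KPT-330. At a locus on chromosome 17 RP11-147L13.14, RP11-147L13.8 and RP11-147L13.15 had log2 fold changes of 1.09, 1.16 and 1.55. Between NEAT1 and MALAT1 lies CMB9-22P13.1, at -0.05 in the combination (not called) and -0.57 in KPT-330. The nearest coding gene at 1 CPM or more lay a median of 4585 bases away. Over the 195 members within 5 kb of it and outside its span, the change of the member and that of the gene correlated with Pearson's r of 0.33 in the combination over DMSO, 0.22 in CS, 0.38 in KPT-330 and 0.45 in the combination over KPT-330. Over the 284 members farther away r was 0.09, 0.06, 0.07 and 0.15. Both values of a pair come from the same libraries. The median log2 fold change in the combination within 5 kb was 0.46 for the members and -0.11 for their neighbours.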

How the data were processed

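RNA was sequenced from 12 JEKO-1 libraries in 4 groups of 3, assigned by the labels. Per the series design text, RNA was extracted with a kit for fixed tissue, poly(A) libraries were made with an unstranded kit, and the authors deposited whole-number counts per gene on Ensembl version 78 after aligning reads to hg38 with STAR. The program that counted the reads is not given in the sources used here. STAR, edgeR and hg38 are also named in the submitters' processing notes.

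Members are lincRNA rows on primary chromosomes with a mean of 1 CPM or more, where CPM is the count divided by the column total. Printed levels are CPM on TMM-scaled library sizes. The members, lists and rules for naming members were chosen with earlier results of these data known. The test was that of edgeR 4.0.16 (R 4.3.3). Its filterByExpr step by group, with a minimum count of 10, kept 19460 genes. A quasi-likelihood model with robust dispersion and group as its term was fitted to all 12 libraries together, leaving 8 residual degrees of freedom, and contrasts were tested two-sided. Each SE was obtained from the log2 fold change and its F statistic (the change over the root of F). p-values were adjusted by Benjamini-Hochberg over all tested genes of a comparison, and calls were made at 0.05.

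The rule for naming took the 10 members of highest mean CPM, the 8 highest and 8 lowest log2 fold changes of the comparisons with DMSO and of the combination against KPT-330, the 4 highest and 4 lowest of CS against KPT-330 and of the interaction (all with at least 2 CPM in the higher group), the members on 5 lists of RNAs, and the 3 genes on each side of the limit of 1 CPM; 68 members were named so. CMB9-22P13.1, MIATNB, the AC006129 and the RP11-147L13 members were chosen after their values were seen. Alternatives were other scalings, filters, DESeq2 1.42.0, GC correction, fits of the compared groups alone, a replicate block, each library left out, and, chosen after seeing the data, a fit without the 3 libraries of lowest GC slope. The test was checked on simulated counts. All replicate pairs differed by more than sampling noise. Intervals were not needed because every printed level has replicates; floors cover counting error only. Sequences are from RefSeq (GRCh38.p14).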

Additional observations from a re-analysis of the deposited data

Results flagged for a closer look

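These results are given because the effect of CS differed between cells with and without KPT-330 by a test of the difference itself, the interaction of edgeR's quasi-likelihood fit. It was positive in 87 members (15%) and negative in 35 (6.03%), against 8.04% and 6.62% of all tested genes, and the count of 87 lay between 50 and 115 with 1 library left out. The named members with the highest values were RP11-12A2.3 at 2.06 ± 0.43 (SE; adjusted p = 0.00744), RP11-456O19.2 at 1.74 ± 0.34 (adjusted p = 0.00447), RP11-65J21.3 at 1.51 ± 0.43 (adjusted p = 0.033) and RP11-629O1.2 at 1.41 ± 0.32 (adjusted p = 0.0114). RP11-12A2.3, now LINC01625, had 113, 87 and 170 reads in the combination, 12, 28 and 9 in CS, 77, 89 and 93 in KPT-330, and 37, 32 and 46 in DMSO. RP11-456O19.2 was at 1.99, 2.11 and 3.22 CPM in the combination, 0.874, 0.951 and 0.721 in CS, 0.818, 1.05 and 0.84 in KPT-330, and 1.31, 0.832 and 0.946 in DMSO. RP11-456O19.2 reached a mean of 1 CPM only through the combination, and RP11-12A2.3 only through the libraries with KPT-330. RP11-65J21.3 reached it only through the DMSO libraries. The rule thus chose these members partly through groups that raise their interaction. RP11-65J21.3 lost its call in 6 alternative fits, those without combination library 2 (1.23), CS library 2 (1.55), CS library 3 (1.46), KPT-330 library 1 (1.19), KPT-330 library 2 (1.58) or DMSO library 2 (1.32).

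The named members with the lowest values were SNX29P2 at -2.23 ± 0.27 (adjusted p = 0.00019), AC015849.16 at -1.41 ± 0.18 (adjusted p = 0.000322), PDZK1P2 at -1.35 ± 0.22 (adjusted p = 0.00164) and LINC00996 at -1.33 ± 0.10 (adjusted p = 3.29e-06). SNX29P2 was at 1.67, 1.81 and 2.35 CPM in the combination, 4.97, 5.02 and 6.03 in CS, 4, 3.29 and 3.41 in KPT-330, and 1.93, 2.71 and 1.58 in DMSO. PDZK1P2 was at 2.27, 2.29 and 2.21 CPM in the combination, 4.07, 3.53 and 3.71 in CS, 3.98, 3.25 and 3.39 in KPT-330, and 1.72, 2.69 and 2.55 in DMSO. SNX29P2 and PDZK1P2 each overlap another row of the same name, AC015849.16 and PDZK1P2 are pseudogenes in GENCODE 44, and reads shared with near-identical copies cannot be told apart. LINC00996 was at 27 to 30.3 CPM in the combination, and its smaller change in CS over DMSO was -0.25 ± 0.07 (adjusted p = 0.0328).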

How the results depend on the processing

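Of 138 named values that passed, 113 passed in every alternative run and 25 were lost in some. Scaling by library size alone gave 62 members lower in KPT-330 and 52 lower in the combination, each against DMSO, and 108 higher in CS. It turned the change of RP11-94L15.2 in KPT-330 to 0.01 and that of SNHG8 in the combination to 0.15. After GC correction CS gave 119 higher and 32 lower, and the interaction 65 negative. With CS and DMSO fitted alone 17 were higher and 4 lower. The cause of these changes was not tested. The other compared groups fitted alone gave 216 higher and 82 lower for KPT-330 over DMSO, and 307 and 61 for the combination over DMSO. They gave 271 and 63 for the combination over KPT-330, and 110 and 145 for CS over KPT-330. In the fit of all 12 libraries the estimate of the spread is shared, so that the KPT-330 libraries enter it for CS over DMSO too. The replicate numbers were not used as pairs. Same-numbered libraries correlated in their deviations between -0.384 and 0.401 (median -0.026), and a replicate block left 9 members lower in CS. For numbers 1, 2 and 3 this was 0.358, -0.013 and 0.401 between combination and DMSO, and -0.36, 0.008 and -0.384 between CS and DMSO. GC slope ran in order of number in DMSO (0.087, -0.13, -0.314), the combination (0.128, 0.026, -0.15) and CS (-0.229, -0.102, 0.059). Whether a batch follows the numbers was not tested. Leaving out 1 library at a time gave 292 to 320 higher and 64 to 83 lower in the combination, 37 to 70 and 10 to 22 in CS, 179 to 199 and 77 to 101 in KPT-330, 204 to 239 and 41 to 51 for the combination against KPT-330, 82 to 109 and 111 to 128 for CS against KPT-330, and 50 to 115 positive and 24 to 37 negative interactions. Without the 3 libraries of lowest GC slope 301 were higher and 72 lower in the combination, and 58 interactions were positive. With 3 libraries a group and members of a few reads, small changes of the scarce members were not detectable at this depth.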
